A study of Mus musculus with 7 samples.

Results

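Aminoacyl-tRNA synthetases join each amino acid to the transfer RNA that carries it to the ribosome. Separate enzymes, all encoded in the nucleus, serve the cytosol and the mitochondria, and by convention the mitochondrial genes end in 2. Their genes were followed here through dimethylation of histone H3 at lysine 79 (H3K79me2), a mark that the enzyme DOT1L lays down over the first part of actively transcribed genes. The members were 36 named genes, 20 cytosolic and 16 mitochondrial. Each was represented by the region with the highest mean read count among the regions overlapping its RefSeq span, out of 29397 regions in the deposited table. A region was found for 33 of the 36 genes, and these genes rested on 32 different regions because Hars and Hars2 shared one.

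The study compared macrophages grown from C57BL/6 mouse bone marrow with 1 µM SGC0946, a DOT1L inhibitor, with macrophages grown with its solvent DMSO, with 3 biological replicates each. Both groups were cultured for 7 to 8 days with L929-conditioned medium as the source of M-CSF, and the inhibitor or DMSO was present during differentiation. Mice of both wild-type and knockout origin appear in the growth protocol, and the genotype behind these libraries is not given. The input library was not used here. In bulk chromatin, fewer marked cells and less mark per cell cannot be told apart. The libraries held 2.95 to 3.13 M reads in regions with SGC0946 and 16.7 to 19.5 M with DMSO. All 10 macrophage markers checked had a region, with 84.5 to 339 reads per kb under DMSO. The region of Cd68 overlaps 3 coding genes, so its reads cannot be credited to Cd68. Of 22 markers of other cell types, 18 had no region. A region at the dendritic cell gene Zbtb46 held 15.6 reads per kb with SGC0946 and 124 with DMSO. It overlaps 3 coding genes, so its reads cannot be credited to Zbtb46. The regions of Lck (8, 6 and 3 reads with SGC0946, and 2, 1 and 1 with DMSO), Mpo (12, 8 and 7, and 7, 3 and 1) and Klf1 (6, 3 and 9, and 3, 3 and 6) were near empty in both groups. The part of other cells in the results was not tested.

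Cytosolic synthetases charge the transfer RNAs used to translate nuclear messages, and mitochondrial ones those used for the proteins encoded by the mitochondrial genome. Gars and Kars, for glycine and lysine, make both forms from a single gene. Of the cytosolic enzymes, 8 sit in the multisynthetase complex, held together by the scaffold proteins encoded by Aimp1, Aimp2 and Eef1e1. Several cytosolic synthetase genes are known targets of ATF4, the transcription factor that responds to amino acid shortage and binds C/EBP-ATF elements.

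Start sites are shown because most of the marked regions with a known strand begin at or near them. RefSeq promoter windows of GRCm38.p6, 250 bases before to 50 bases after the annotated start, were available for 27 of the 36 genes. The letters TGATGNAA, the core of the C/EBP-ATF element, were searched on both strands, and so were the letters CCGGAAG of an ETS factor site. The first motif was found in 5 of 13 cytosolic windows, in 0 of 14 mitochondrial windows and in 3.97% of all 32851 windows. The 5 genes with a match are given as 60 bases in the direction of transcription, with the match in capitals.
Aars (chr8:111033704-111033763, plus strand): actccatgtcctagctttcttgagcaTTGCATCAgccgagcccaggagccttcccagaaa
Gars (chr6:55037941-55038000, plus strand): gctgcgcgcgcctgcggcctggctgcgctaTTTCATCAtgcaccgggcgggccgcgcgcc
Iars (chr13:49682085-49682144, plus strand): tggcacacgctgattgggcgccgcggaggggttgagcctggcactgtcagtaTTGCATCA
Tars (chr15:11399659-11399718, minus strand): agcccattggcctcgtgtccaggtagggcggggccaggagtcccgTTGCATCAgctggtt
Yars (chr4:129189854-129189913, plus strand): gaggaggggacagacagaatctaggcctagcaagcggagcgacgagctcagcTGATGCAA

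The match began 112 bases before the start in Aars, 30 before in Gars and 15 before in Tars, and it lay just after the start in Iars and Yars. Aars held a second match 9 bases after the start, outside the bases shown. CCGGAAG was found in 5 of 13 cytosolic, 4 of 14 mitochondrial and 8.86% of all windows. The methionine pair is shown because only its mitochondrial region was denser in all DMSO libraries, again with the match in capitals. That region also overlaps Boll.
Mars1 (chr10:127311787-127311846, minus strand): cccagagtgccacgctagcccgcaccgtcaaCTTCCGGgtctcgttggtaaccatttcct
Mars2 (chr1:55237117-55237176, plus strand): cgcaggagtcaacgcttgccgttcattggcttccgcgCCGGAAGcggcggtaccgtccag
A match is a string of letters and was not tested as a bound site.

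The marked regions of cytosolic synthetase genes were mostly long, and most of those with a known strand began close to the start. All 20 cytosolic genes had a region, 13 of 16 mitochondrial genes had one, and 43.4% of 21900 annotated coding genes did. The mitochondrial genes for alanine (Aars2), serine (Sars2) and valine (Vars2) had none. The region measured 2.08 kb at Qars to 12.1 kb at Yars among cytosolic genes (median 7.90 kb), and 500 bp at Pars2 and Wars2 to 9.73 kb at Fars2 among mitochondrial genes (median 1.67 kb). The median over all coding genes with a region was 5.97 kb. All regions of a gene together covered 14.5% (Lars) to 50.2% (Nars) of the gene span among cytosolic genes.

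Among the 24 genes with both a region and a strand, the region contained the annotated start in 8 of 13 cytosolic and 4 of 11 mitochondrial genes. At Farsa, for the alpha subunit of the phenylalanine enzyme, it began 2 bp before the start, at Eprs, for the joint glutamate and proline enzyme, 70 bp before, and at Gars 88 bp before. Where the start lay outside, the region began 116 bp after it at Aars, 144 bp at Qars, 148 bp at Mars1 and 462 bp at Dars. The start is that of the first promoter window of each gene, which can lie inside the RefSeq span. At Aars the span begins at 111027778 and the region at 111033958. At Eprs these positions are 185361417 and 185362974. Of the 13 cytosolic genes, Farsb, for the beta subunit of the phenylalanine enzyme, had the region farthest into the gene. That region began 4005 bp after the start and held 45.4% of the reads of the 9 regions of Farsb. At Wars2 the region lay 21879 bp after the start.

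**Figure D1:**
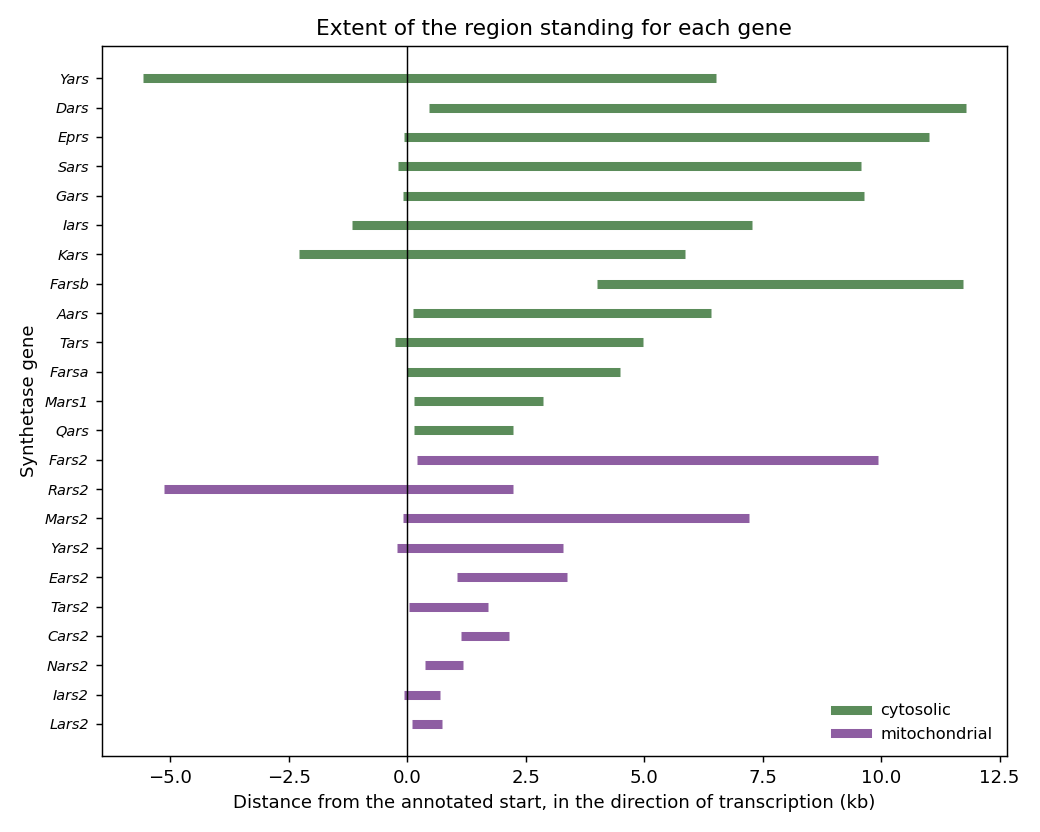
Extent of the region standing for each gene, in kb from the annotated start in the direction of transcription, for 13 cytosolic (green) and 10 mitochondrial (purple) genes; Wars2, whose 500 bp region began 21879 bp after the start, is off the scale. Most bars touch or begin near the start, and the shortest bars belong to mitochondrial genes.

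Several regions ran into a neighbouring coding gene, so their reads cannot be credited to the synthetase alone. This held for Hars with Hars2, Kars with Terf2ip, Wars with Wdr25 and Yars with S100pbp, and, among mitochondrial genes, for Hars2, Iars2 with Bpnt1, Mars2 with Boll and Rars2 with Orc3. The region at Mars2 was 7312 bp long over a gene of 2.9 kb. At Rars2 it began 5131 bp before the start, and at Yars 5582 bp before. Hars and Hars2, for the histidine enzymes of the cytosol and the mitochondria, stand head to head, and 1 region of 4944 bp (chromosome 18, 36780468 to 36785411) stood for both.

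With DMSO, read density was mostly higher over cytosolic than over mitochondrial genes. The medians were 126 and 61.3 reads per kb, against 108 over all coding genes with a region. Sars, for serine, carried the densest mark of the family, and its region (chromosome 3, 108435690 to 108445460) had 481, 477 and 410 reads with SGC0946 and 2592, 2567 and 2987 with DMSO. That was 278 ± 24.1 reads per kb with DMSO (SD, n = 3), above 94.1% of coding genes with a region. Rars (arginine) with 227, Gars with 227, Farsa with 225 and Iars (isoleucine) with 216 reads per kb followed, and the spreads of these 4 overlapped. The sparsest cytosolic genes were Dars (aspartate) with 69.7 and Mars1 (methionine) with 76.5 reads per kb under DMSO.

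Mitochondrial genes spanned a wide range. Mars2 had 127 ± 16.8, Yars2 (tyrosine) 117 ± 16.8 and Rars2 87.7 ± 7.57 reads per kb with DMSO (SD, n = 3). At the low end Nars2 (asparagine) had 39.5 ± 7.09 and Wars2 (tryptophan) 30.7 ± 17.0. In the 25% of all regions with the fewest reads per kb, density was 6.13 ± 1.17 with SGC0946 and 21.8 ± 1.89 with DMSO (SD, n = 3).

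Genes for the same amino acid were compared in 13 pairs, leaving out the shared histidine region; Eprs and Fars2 each stand in more than 1 pair. The cytosolic gene was denser in all 3 DMSO libraries in 11 pairs, from 1.58-fold for Lars over Lars2 (leucine) to 4.87-fold for Nars over Nars2. The methionine pair ran the other way in all libraries of both groups, with 13.2 reads per kb for Mars1 against 18.2 for Mars2 with SGC0946, and 76.5 against 127 with DMSO. For tyrosine the density of Yars and Yars2 overlapped under DMSO, at 120 and 117 reads per kb. With SGC0946, 9 pairs had the cytosolic gene denser in all 3 libraries, and 2 had the mitochondrial gene denser. The second of these was tryptophan, with 8.13 reads per kb for Wars against 10.0 for Wars2 with SGC0946, where the values overlapped, and 84.9 against 30.7 with DMSO. The regions of Mars2, Iars2, Rars2, Wars and Yars also overlap a further coding gene, so their densities cannot be credited to the synthetase alone. These pairs share libraries and are a description, without a test.

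**Figure D2:**
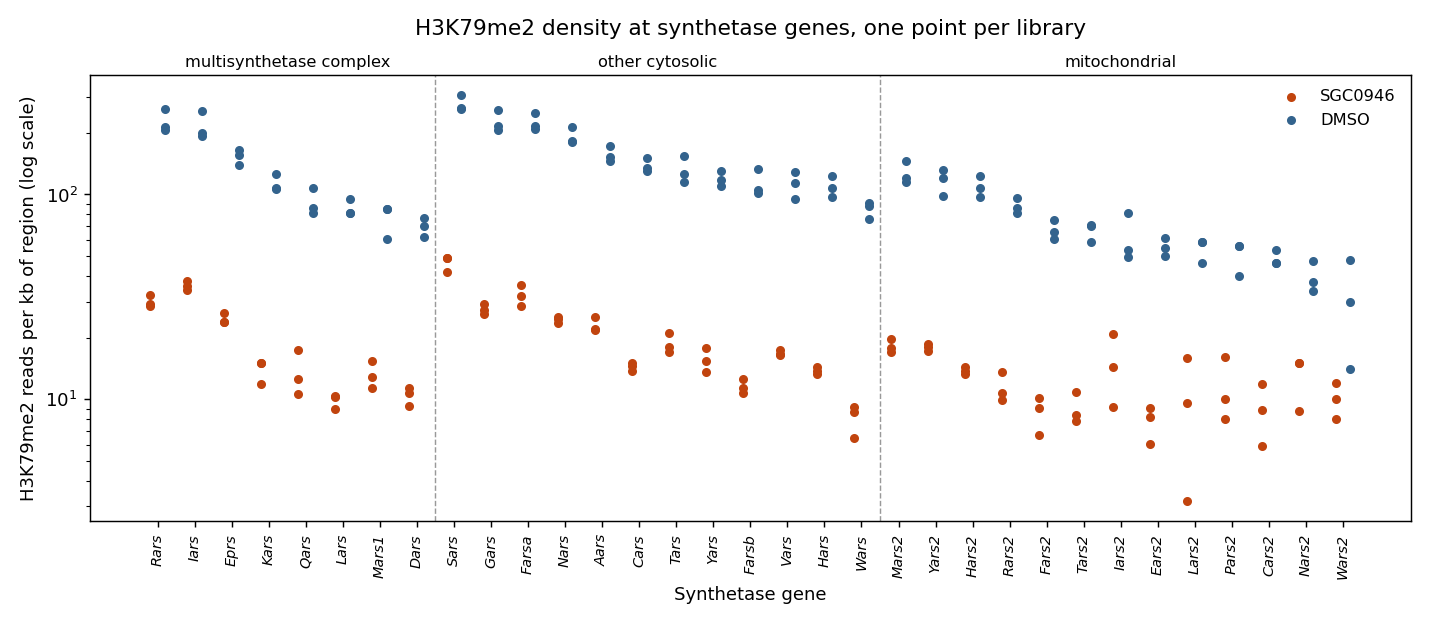
H3K79me2 reads per kb of region (log scale) at 33 synthetase genes, with 3 SGC0946 libraries (orange) and 3 DMSO libraries (blue) as single points. In each gene all SGC0946 points except those of Wars2 lie well below all DMSO points; at Wars2 the highest SGC0946 point, 12 reads per kb, is just under the lowest DMSO point, 14.

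Setting SGC0946 against DMSO addresses the loss of the mark over synthetase genes under DOT1L inhibition, and the differences among them in what they kept. Read counts fell at every synthetase gene that could be tested. On unscaled counts, with the same library size assumed for all libraries, 32 of 32 tested genes were lower (edgeR quasi-likelihood test, adjusted p between 5.96e-149 for Cars and 1.11e-06 for Nars2). The whole table did the same, with 99.7% of all regions and 99.8% of the regions standing for coding genes lower, and 0.0201% and 0.022% higher. Wars2 was under the count filter of that test, and its 5, 6 and 4 reads with SGC0946 lay below its 24, 7 and 15 with DMSO.

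The reads kept, as the SGC0946 mean in percent of the DMSO mean, ran from 9.57% at Wars to 17.3% at Mars1 among cytosolic genes, with a median of 13.7%. Among mitochondrial genes they ran from 12.6% at Hars2 to 32.6% at Nars2 and Wars2, with a median of 15.3%. Coding genes with a region kept a median of 14.2%, with an interquartile range of 12.5% to 17.6%. The number of reads sequenced per library is not known, so the size of the fall holds only if sequencing depth was equal.

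To see which genes kept more or less than the rest, counts were taken as shares of each library's total. A log2 change of share is thus set against the drop in total reads. Of 33 genes, 17 were lower in share, 1 was higher and 15 did not pass (edgeR quasi-likelihood test, adjusted p under 0.05 over all regions). The background was already low, since 23.3% of all regions and 50.1% of the regions standing for coding genes were lower, while 6.16% and 9.98% were higher. The 17 genes rested on 16 regions. The median log2 change was -0.26 over the 33 synthetase genes and -0.29 over 9089 coding genes tested. Cytosolic genes were lower in 13 of 20 cases and mitochondrial genes in 4 of 13, and the only higher call was mitochondrial. Of coding genes with a mean of at least 50 reads, as all cytosolic regions had, 57.3% were lower. With TMM factors, which move the median of all coding genes up by 0.14, 10 cytosolic and 2 mitochondrial genes were lower. With DESeq2 size factors in edgeR, which move it up by 0.15, these counts were 9 and 0. Scaled to the sparsest 25% of regions, which moves it down by 0.70, they were 20 and 7, and no gene was higher. Under these alternatives, in the same order, 32.5%, 29.4% and 84.2% of coding genes were lower.

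**Figure D3:**
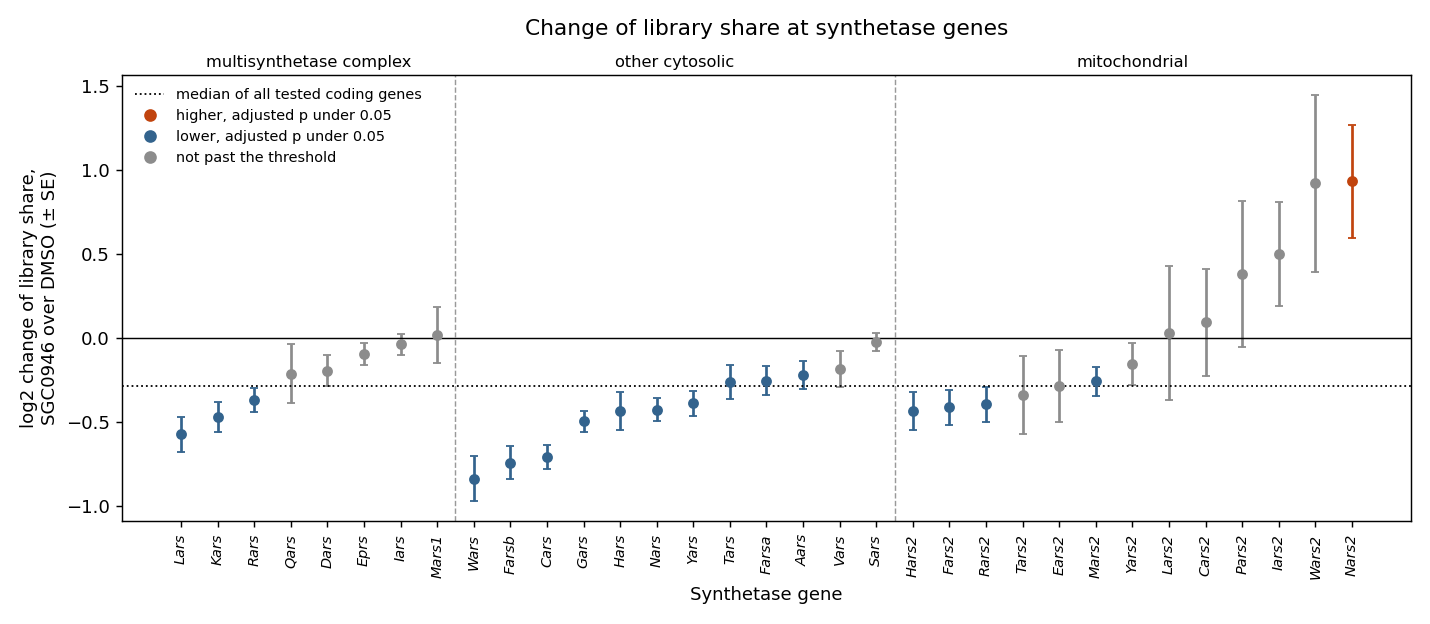
The log2 change of library share (SGC0946 over DMSO, points with ± SE) for 33 synthetase genes in 3 groups, with the median of all tested coding genes (-0.29) as a dotted line. Blue points are the 17 genes lower in share, orange is Nars2, the single higher call, and the 6 mitochondrial genes on the right have the widest errors.

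Outside the multisynthetase complex, 10 of 12 cytosolic genes were lower in share, with a median log2 change of -0.41. Of all coding genes 50.1% were lower. Of those with a mean of at least 50 reads, as all cytosolic regions had, 57.3% were lower, with a median of -0.32. Of these 12 genes, 7 were lower with TMM factors, against 32.5% of coding genes. With DESeq2 size factors or the DESeq2 Wald test 6 were lower, against 29.4% and 25.7%. All 12 were lower when scaled to the sparsest 25% of regions, against 84.2%. Wars, for tryptophan, an enzyme known to be induced by interferon gamma, lost the most. Its region (chromosome 12, 108888783 to 108894319), which also overlaps Wdr25, had 48, 51 and 36 reads with SGC0946 and 489, 421 and 501 with DMSO. The groups lay far apart. Wars kept 9.57%, and its share changed by log2 -0.84 ± 0.13 (SE, edgeR adjusted p = 3.46e-07).

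With 1 region per gene, Farsb and Cars (cysteine) were close behind. Farsb (chromosome 1, 78477168 to 78484892) had 97, 88 and 83 reads with SGC0946 and 813, 783 and 1033 with DMSO, a share change of log2 -0.74 ± 0.10 (SE, edgeR adjusted p = 2.22e-09). Cars (chromosome 7, 143588210 to 143600230) had 181, 175 and 165 reads with SGC0946 and 1612, 1565 and 1803 with DMSO. All SGC0946 values were far under the DMSO values, and the share of Cars changed by log2 -0.71 ± 0.07 (SE, edgeR adjusted p = 3.20e-13). Farsa, whose product joins that of Farsb in one enzyme, kept 14.3% where Farsb kept 10.2%. Its share changed by log2 -0.25 ± 0.08 (SE, edgeR adjusted p = 0.0146), a call lost without SGC0946 replicate 1 or 2 (edgeR adjusted p = 0.101 and 0.167) and with TMM factors (0.389). With all regions of each gene summed, the log2 change was -0.51 for Farsb (edgeR adjusted p = 9.68e-08). On the same sums it was -0.75 for Wars, -0.68 for Cars and -0.56 for Lars. The difference between the 2 subunit genes was not tested.

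The other cytosolic genes outside the complex lay in between. Gars (chromosome 6, 55037913 to 55047641) had 265, 283 and 253 reads with SGC0946 and 2104, 2009 and 2506 with DMSO, and its share changed by log2 -0.49 ± 0.06 (SE, edgeR adjusted p = 8.32e-10). Hars, Nars (asparagine) and Yars (tyrosine) were lower by log2 -0.43, -0.43 and -0.39. Tars (threonine) and Aars (alanine), both with a C/EBP-ATF match, were nearer to the threshold, at log2 -0.26 (edgeR adjusted p = 0.0394) and -0.22 (0.0329). The call of Tars was lost without SGC0946 replicate 1 or 2 or DMSO replicate 3 (edgeR adjusted p = 0.326, 0.128 and 0.174). That of Aars was lost without SGC0946 replicate 2 or 3 or DMSO replicate 2 or 3 (0.131, 0.113, 0.0701 and 0.0725). Both were also lost with TMM factors (0.417 and 0.545).

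Sars and Vars (valine) did not pass. Sars kept 16.8%, and its shares of 154, 159 and 139 CPM (its count scaled to the library's total in regions) with SGC0946 overlapped the 155, 151 and 153 CPM with DMSO (log2 -0.02 ± 0.05 SE, edgeR adjusted p = 0.807). Vars kept 15.0% (log2 -0.19 ± 0.11 SE, edgeR adjusted p = 0.218).

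In the multisynthetase complex 3 of 8 genes (37.5%) were lower in share, with a median log2 change of -0.20. That compares with 50.1% of coding genes, and with 57.3% of those with a mean of at least 50 reads. In the complex the count stayed at 3 with TMM factors and with DESeq2 size factors in edgeR, against 32.5% and 29.4% of coding genes. The count was 2 with the DESeq2 Wald test, against 25.7%. It was 8 when scaled to the sparsest 25% of regions, against 84.2%. Lars, for leucine (chromosome 18, 42253749 to 42261818), had 84, 83 and 72 reads with SGC0946 and 659, 653 and 771 with DMSO. It kept 11.5%, and its share changed by log2 -0.57 ± 0.10 (SE, edgeR adjusted p = 3.50e-06). Kars and Rars were lower by log2 -0.47 ± 0.09 and -0.37 ± 0.07 (SE, edgeR adjusted p = 1.39e-05 and 2.05e-05). The region of Kars also overlaps Terf2ip.

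The other complex members stayed nearer to the whole library. Iars (chromosome 13, 49680962 to 49689407) had 321, 287 and 301 reads with SGC0946 and 1634, 1689 and 2154 with DMSO, and kept 16.6%. Its shares overlapped between the groups, with a log2 change of -0.04 ± 0.06 (SE, edgeR adjusted p = 0.742). Eprs kept 16% with a log2 change of -0.09 ± 0.06, and Mars1 kept 17.3% with 0.02 ± 0.17 (SE, edgeR adjusted p = 0.318 and 0.961). Dars kept 14.9% and Qars, for glutamine, 14.7%, and neither passed (log2 -0.19 and -0.21, edgeR adjusted p = 0.112 and 0.442). The log2 changes of Eprs, Iars and Sars turned positive, still without a call, with TMM factors (0.04, 0.10 and 0.11). The difference between complex members and other cytosolic genes was not tested, since genes are not replicates.

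Of the 5 genes with a C/EBP-ATF match near the start, Gars, Yars, Tars and Aars were lower in share and Iars was not called. Of all coding genes 50.1% were lower, and of those with a mean of at least 50 reads 57.3%. With TMM factors the calls of Tars and Aars were lost (edgeR adjusted p = 0.417 and 0.545), where 32.5% of coding genes were lower. The genes without a match held both the lowest value, at Farsb among those with a promoter window, and the highest, at Nars2.

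Among mitochondrial genes, the 7 with a mean of at least 50 reads over all libraries lay near coding genes of the same depth. Of these, 4 were lower in share and 3 did not pass, with a median log2 change of -0.34, against 57.3% lower and a median of -0.32 over 7942 coding genes above the same mean. Fars2 (phenylalanine; chromosome 13, 36117846 to 36127572) had 99, 88 and 65 reads with SGC0946 and 592, 640 and 733 with DMSO. Its share changed by log2 -0.41 ± 0.11 (SE, edgeR adjusted p = 0.00117). When all 17 regions of this long gene were summed, the change was -0.06 (edgeR adjusted p = 0.514), and without SGC0946 replicate 3 it was -0.28 (0.0675).

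Rars2 and Mars2 were lower in share by log2 -0.39 ± 0.10 and -0.26 ± 0.09 (SE, edgeR adjusted p = 0.0016 and 0.0167), and Hars2 by the value of the region it shares with Hars. All 3 regions overlap a further coding gene. With TMM factors the calls of Rars2 and Mars2 were lost (edgeR adjusted p = 0.0592 and 0.385), and that of Mars2 also without SGC0946 replicate 1 or 2 or DMSO replicate 3 (0.128, 0.0982 and 0.0923). With DESeq2 size factors Hars2 and Hars were lost too (0.0571). Yars2, Ears2 (glutamate) and Tars2 did not pass, at log2 -0.15, -0.28 and -0.34.

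The 6 mitochondrial genes with a mean under 50 reads all had a positive log2 change of share, with a median of 0.44. The same was common at that depth, where the median over 1147 coding genes was 0.20 and 107 were higher against 10 lower. The boundary of 50 was applied here after the values were seen. Nars2 (chromosome 7, 96951894 to 96952695) had 7, 12 and 12 reads with SGC0946 and 27, 30 and 38 with DMSO, and kept 32.6%. Its counts fell, while its share changed by log2 0.93 ± 0.34 (SE, edgeR adjusted p = 0.0275). That call was lost without SGC0946 replicate 2 or 3 or DMSO replicate 1 (edgeR adjusted p = 0.151, 0.159 and 0.0568).

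Wars2, with 5, 6 and 4 reads under SGC0946, passed the filter of the share test only through its SGC0946 libraries, which favours a positive change. Its log2 change was 0.92 ± 0.53 (SE, edgeR adjusted p = 0.21), 1.44 without DMSO replicate 1 (0.0487) and 0.74 when its 6 regions were summed (0.00765). Lars2 had 10, 6 and 2 reads with SGC0946 and 37, 29 and 37 with DMSO, a log2 change of 0.03 ± 0.40 (SE, edgeR adjusted p = 0.971). Cars2, Iars2 and Pars2 (proline) had 9, 11.3 and 5.67 reads on average with SGC0946 and did not pass either. The SE of the log2 change was 0.31 to 0.53 in these 6 genes.

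**Figure D4:**
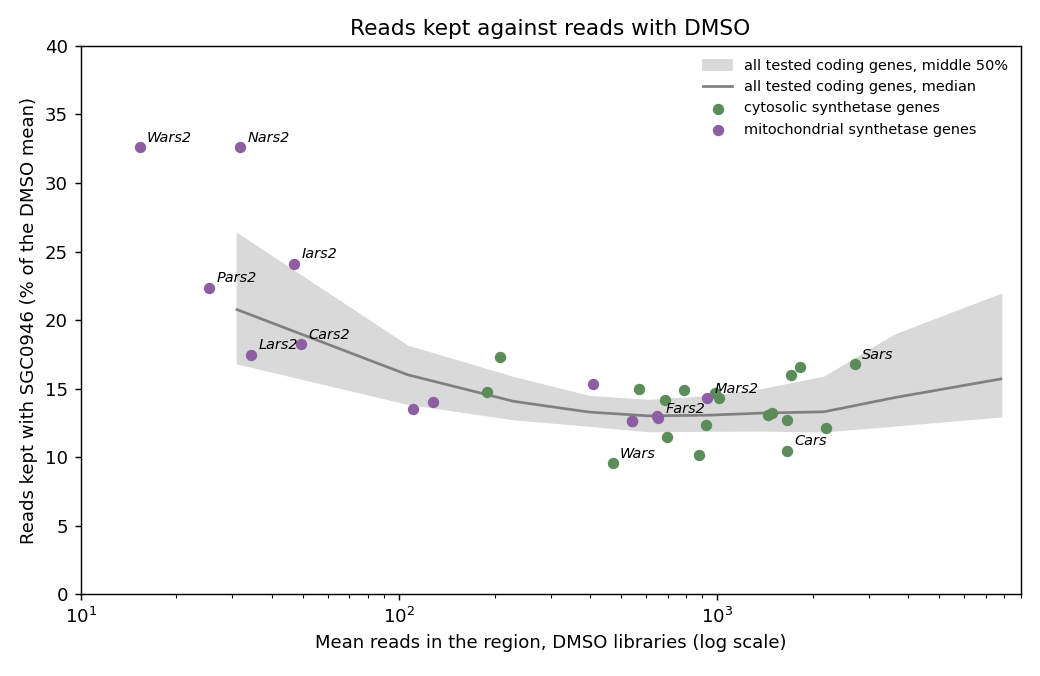
Reads kept with SGC0946, in percent of the DMSO mean, against the mean reads in the region with DMSO (log scale) for 20 cytosolic (green) and 13 mitochondrial (purple) genes; the grey line and band are the median and middle 50% of all tested coding genes in 10 bins of read count. The 6 mitochondrial genes under 50 reads keep 17.5% to 32.6%, where all genes in the lowest bin have a median of 20.8%, and the cytosolic genes lie between 9.57% and 17.3%.

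The summed reads of both compartments were also compared. With 1 region per gene, the summed reads of the 19 cytosolic regions, without the shared histidine region, were 7.07, 6.83 and 6.71 times those of the 12 mitochondrial ones with SGC0946, and 7.35, 7.02 and 7.16 times with DMSO. These groups overlapped, and the log2 ratio differed by -0.063 (SGC0946 minus DMSO), where its SD was 0.0382 among SGC0946 and 0.0327 among DMSO libraries (n = 3 each). Summed over all regions of each gene, the ratios were 5.50, 5.12 and 5.34 with SGC0946 and 6.10, 6.10 and 6.05 with DMSO. There the groups did not overlap, and the log2 ratio differed by -0.194. The mitochondrial sum rests mostly on Fars2, Mars2, Rars2 and Yars2. The median log2 share change of cytosolic genes (-0.31) lay 0.16 under that of mitochondrial genes (-0.15), and without SGC0946 replicate 1 this distance was 0.29. For the 7 mitochondrial genes with a mean of at least 50 reads, as all cytosolic regions had, the median was -0.34. For the 6 mitochondrial genes under 50 reads it was 0.44. Neither summed share overlapped between the groups. For cytosolic regions it was 0.101 ± 0.00203% of a library with SGC0946 and 0.124 ± 0.00199% with DMSO (SD, n = 3). For mitochondrial regions it was 0.0147 ± 0.000111% with SGC0946 and 0.0174 ± 0.000536% with DMSO (SD, n = 3). Such a fall was common, since the median log2 share change over all coding genes tested was -0.29 and 50.1% were lower.

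Across the 32 regions the log2 share change went down with region length (Spearman rho -0.565) and with mean count (-0.453). Over all coding genes tested these values were -0.208 and -0.138, and within the 20 cytosolic genes -0.125 and 0.096. These are descriptions across genes that share the same libraries.

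The 3 scaffold genes of the multisynthetase complex were all lower in share. Aimp1 (134, 105 and 97 reads with SGC0946, and 837, 853 and 1033 with DMSO), Aimp2 and Eef1e1 were lower in share by log2 -0.47 ± 0.09, -0.42 ± 0.16 and -0.51 ± 0.13 (SE, edgeR adjusted p = 2.12e-05, 0.0356 and 0.000914). The region of Aimp1 overlaps a further coding gene. Among 10 tested genes for the scaffold, tRNA editing and the mitochondrial route to glutamine, 4 were lower, 0 higher and 6 did not pass, with a median log2 change of -0.24. The fourth lower gene was Mtfmt, which formylates the mitochondrial initiator tRNA (log2 -0.44, edgeR adjusted p = 0.0269).

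Genes for tRNA maturation were lower in 9 of 17 cases, higher in 2 and not called in 6, with a median log2 change of -0.34. Trnt1, which adds the CCA end that synthetases charge, had 46, 51 and 40 reads with SGC0946 and 404, 460 and 496 with DMSO (log2 share -0.76 ± 0.13 SE, edgeR adjusted p = 1.67e-06). Rpp30, a subunit of ribonuclease P, changed by log2 -0.57 (edgeR adjusted p = 0.00974). Trmt10c, part of the mitochondrial ribonuclease P, and Ssb, the La protein that binds new tRNAs, were higher in share by log2 0.26 and 0.20 (edgeR adjusted p = 1.48e-06 and 0.00941), although their counts fell.

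Among 23 tested genes of the amino acid response, 11 were lower in share, 6 higher and 6 not called, with a median log2 change of -0.23. Asns, for asparagine synthetase, had 97, 92 and 99 reads with SGC0946 and 759, 811 and 1058 with DMSO (log2 share -0.64 ± 0.10 SE, edgeR adjusted p = 1.47e-07). Gcn1, which activates the kinase GCN2 when uncharged tRNA builds up, changed by log2 -0.58 (edgeR adjusted p = 4.12e-08). Atf5 and Mthfd2, a transcription factor and a mitochondrial folate enzyme, were higher in share by log2 0.70 and 0.65 (edgeR adjusted p = 3.89e-25 and 9.73e-19), though their counts fell. The regions of both overlap further coding genes, as does that of Trmt10c. Atf4 itself had 111, 123 and 118 reads with SGC0946 and 541, 626 and 694 with DMSO, and its share was not called (log2 0.15 ± 0.10 SE, edgeR adjusted p = 0.28). The shares of lower calls in these 3 lists, 40.0%, 52.9% and 47.8%, lie around the 50.1% of coding genes in general. Higher calls were 0 of 10, 2 of 17 and 6 of 23, in the same order, against 9.98% of coding genes. These differences were not tested.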

How the data were processed

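H3K79me2 ChIP-seq was done on 6 libraries. Per the labels' protocols, chromatin from 10 to 20 M cells was fixed with 1% formaldehyde for 10 min and sequenced as 50 bp single reads to a nominal 40 M. The authors deposited raw read counts per region for one shared set of regions. The submitters' processing notes name HISAT2, HOMER 4.11.1, bedtools 2.27.0, ChIPseeker 1.20.0, R 3.6.3 and mm10. Sources used here give neither the region caller nor any removal of duplicates, pooling or thinning; each could change the counts.

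Regions were joined to RefSeq spans of GRCm38.p6 (mm10), which carry no exons, with Python 3.11.15 and pandas 2.3.3. Starts were read as 0-based and are printed 1-based. The tests used edgeR 4.0.16 (R 4.3.3; filterByExpr, quasi-likelihood F test, Benjamini-Hochberg over all regions tested). One fit used library totals with all factors at 1 (23367 regions), the other equal library sizes (24895 regions). SE is the log2 change over the root of F. DESeq2 1.42.0 was an alternative, and fits without a library kept the same regions. On simulated counts edgeR missed many changes as small as most of those here, so a gene without a call is not shown to be unchanged. Replicates differed by more than sampling noise (chi-square per degree of freedom 1.32 to 2.38). Members, lists and tests were chosen with earlier results of these data known. All synthetases are accounted for. Of each other list, the 2 highest and 2 lowest called genes with a mean of at least 50 reads are named, plus Atf4 and the scaffold genes; Mtfmt was named after its value was seen.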

Additional observations from a re-analysis of the deposited data

How the results depend on the processing

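The fall in unscaled counts held for 32 or 33 genes under all 9 alternatives run. In share, 8 of the 17 lower genes (Cars, Farsb, Gars, Kars, Lars, Nars, Wars and Yars) stayed lower under all 13 alternatives run, and Rars was lost only with the DESeq2 Wald test (adjusted p = 0.059). The number of lower genes was 12 with TMM factors, 9 with DESeq2 size factors in edgeR and 8 with the DESeq2 Wald test. It was 27 when scaled to the sparsest 25% of regions, and 13 to 17 when 1 library was left out. In the same order, 32.5%, 29.4%, 25.7%, 84.2% and 44.0% to 49.6% of coding genes were lower. The higher calls numbered 0 under scaling to the sparsest regions and with the DESeq2 Wald test. They numbered 2 with all regions of a gene summed, and 0 to 1 when 1 library was left out. With the replicate number as a block, 15 genes were lower and 1 higher, where 48.1% of coding genes were lower. Aars and Tars then missed the threshold (edgeR adjusted p = 0.0547 and 0.0569). Same-numbered libraries did not deviate together (r = 0.008, -0.115 and -0.010). So few libraries cannot show whether the shared numbers in the titles mark pairs. The median difference between cytosolic and mitochondrial genes ranged from -0.294 to -0.105 when 1 library was left out. It was -0.268 over regions with 1 coding gene, -0.253 with all regions of a gene summed, and -0.105 without Gars and Kars, the genes that serve both compartments. In the fit on library totals, the 7 mitochondrial genes with a mean of at least 50 reads had a median of -0.34. That of cytosolic genes was -0.31. The log2 ratio of the compartment sums differed by -0.194 (SGC0946 minus DMSO) with all regions of a gene summed. This difference was -0.084 to -0.046 when 1 library was left out.

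Signs turned only for genes without a call. With DESeq2 size factors in edgeR the log2 share changes were 0.06 for Eprs, 0.11 for Iars and 0.13 for Sars, with the DESeq2 Wald test 0.02, 0.08 and 0.08, and with TMM factors 0.04, 0.10 and 0.11. Scaling on the sparsest 25% of regions gave -0.62 for Cars2, -0.21 for Iars2, -0.68 for Lars2, -0.33 for Pars2 and -0.70 for Mars1, the last with a call (adjusted p = 0.000204). When 1 library was left out, Cars2 ranged from -0.17 to 0.34, Iars from -0.07 to 0.02, Sars from -0.06 to 0.03, Lars2 from -0.52 to 0.43 and Mars1 from -0.09 to 0.13. With all regions summed Mars1 was at -0.01. The cause was not tested. Depth limits the 6 mitochondrial genes under 50 reads, which had 5 to 11.3 reads on average with SGC0946.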
